A study of Rattus norvegicus with 44 samples.

Results

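Synaptic vesicle release was followed here through 9 genes of the release machinery, Snap25, Stx1a, Vamp2, Syt1, Rims1, Rims2, Unc13a, Syn2 and Synj1, in the dentate gyrus of young and older rats. The genes were picked by name as members of the release machinery, with earlier results of these data known, so their counts are not independent evidence. They are 9 of the 18347 gene identifiers in the deposited table, and all were expressed well above the mean of 5 that a gene needed to be tested (15598 genes were tested). The table divides some genes over several rows. The 21 rows of the 9 genes were summed to 1 value per gene and rat.

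At a presynaptic terminal, a vesicle fuses with the plasma membrane when its SNARE protein (synaptobrevin 2, from Vamp2) zippers with its partners in that membrane, syntaxin 1A (Stx1a) and SNAP-25 (Snap25). Synaptotagmin 1 (Syt1) is the calcium sensor that triggers fast fusion, RIM1 and RIM2 (Rims1, Rims2) and Munc13-1 (Unc13a) dock and prime vesicles at the active zone, synapsin II (Syn2) holds vesicles in reserve clusters, and synaptojanin 1 (Synj1) is the lipid phosphatase that uncoats vesicles after endocytosis. Granule cells, the principal neurons of the dentate gyrus, release glutamate from mossy fiber terminals in hilus and CA3, and these genes are active in every neuron of the tissue, so that bulk RNA reads them over all of its neurons.

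All rats were male F344 animals and 1 library was made from the dentate gyrus of each rat. The 10 young rats (YNG, 6 months) are listed with vehicle in the authors' attributes table. The 34 older rats, labelled 12 months for the start of treatment, received by oral gavage, in repeated cycles over several months, either vehicle (AV, 12 rats), the BCL-2 family inhibitor ABT-263 (AA, 11 rats) or the kinase inhibitor dasatinib with the flavonoid quercetin (ADQ, 11 rats), treatments that are used to remove senescent cells. Tissue was taken after behavioral testing, and no young rat received a drug, so a drug is compared at 1 age only. Values are median-ratio signal, the authors' estimated reads divided by a size factor per library, and differences are given as log2(signal + 1) between group means, from a limma fit over all tested genes. A gene was called at an unadjusted p under 0.05, the study's threshold, and the Benjamini-Hochberg adjusted p over all tested genes stands beside it. The summed signal was 14297964 to 20579982 per rat, and the estimated depth was 10166556 to 24328425 reads per rat, with group medians of 16702456 in YNG, 15135379 in AV rats, 15727560 in AA and 17820756 in ADQ. The median depth was highest in ADQ, and its part in the differences was not tested. Depth did not limit the detection of the 9 genes, whose lowest value in any rat was 979.8, in Rims2.

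The dentate label was checked against marker genes. Of 8 granule cell markers, 7 passed the filter, among them C1ql2 and Prox1 (means of 5952 and 2515), while Tdo2 averaged 0.661 over the rats. None of the listed cell type markers in the table was at 0 in every rat. Makeup differed between rats. The summed granule cell markers were 12765 to 18054 in YNG, 7882 to 17605 in AV rats, 4967 to 16861 in AA and 12476 to 16149 in ADQ, and the summed oligodendrocyte markers (7 of 7 tested) were 44052 to 122223, 56790 to 178533, 55054 to 155247 and 61685 to 80393 in the same order. The 4 rats with the lowest granule cell sums (under 10000) were also the 4 with the highest oligodendrocyte sums: 3989 and 4571 in AV, and 3996 and 4107 in AA. They stood at ranks 1, 2, 4 and 5 of 44 from the highest for summed CA1 pyramidal cell markers and at ranks 41 to 44 for summed CA3 pyramidal and mossy cell markers. No YNG or ADQ rat was among them. The YNG rats V6 and V12 came close, at ranks 5 and 8 for oligodendrocyte markers and 7 and 8 for CA1 markers. For CA3 and mossy cell markers they stood at ranks 39 and 40, and their granule cell sums were 12852 and 12765. They were kept, so leaving out the 4 rats took rats from AV and AA only. What this did to the counts against YNG was not tested. Of the 7 tested granule cell markers, 3 fell in ADQ against YNG while the other 4 had a higher mean (list median 0.10), 3 fell in AA and 2 in AV (both list medians -0.12). Of 7 oligodendrocyte markers, 6 rose in AV against YNG, 3 in AA and 1 in ADQ. For the vesicle release genes, counts of called genes in group comparisons are therefore also given without these 4 rats. This alternative was chosen after seeing the data. Counts for marker genes, for other genes of the vesicle cycle and within subsets of the rats are given only with these 4 rats included. In bulk tissue, fewer cells of a type and less RNA per cell cannot be told apart.

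The mean was highest in the older rats given dasatinib plus quercetin for 8 of the 9 vesicle release genes, the exception being Vamp2. The share of all tested genes with their highest mean in ADQ was not counted, so this count has no background beside it. In ADQ against YNG, 5 of the 9 genes rose (Rims1, Syn2, Synj1, Unc13a and Syt1, by log2 0.53, 0.38, 0.36, 0.34 and 0.32) and none fell, where 13.5% of all tested genes rose and 14.6% fell. Rims1, Synj1 and Syt1 also passed after adjustment (3 of 9, against 3.12% of all genes that rose at an adjusted p under 0.05). The median difference over the 9 genes was 0.32, beside 0.01 over all genes tested. Permutation of the rats (100000, two-sided) gave p-values of 7e-05 for Syt1, 0.00031 for Synj1, 0.00082 for Syn2, 0.00239 for Rims1 and 0.00731 for Unc13a. In the vehicle-treated older rats, 1 of 9 rose against YNG (Syt1, 0.17), where 10.6% of all genes rose and 10.7% fell. In the ABT-263 rats, 1 of 9 rose (Synj1, 0.19), where 12.6% rose and 14.1% fell, so that both counts stood near their backgrounds. The 3 comparisons share the 10 YNG rats. Without the 4 rats, the counts against YNG were 5 in ADQ (15% of all genes rose in that fit), 3 in AV (Rims1, Syn2 and Synj1, against 9.57%) and 3 in AA (the same symbols, against 11.7%), and Syt1 in AV then had a p of 0.0555.

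**Figure D1:**
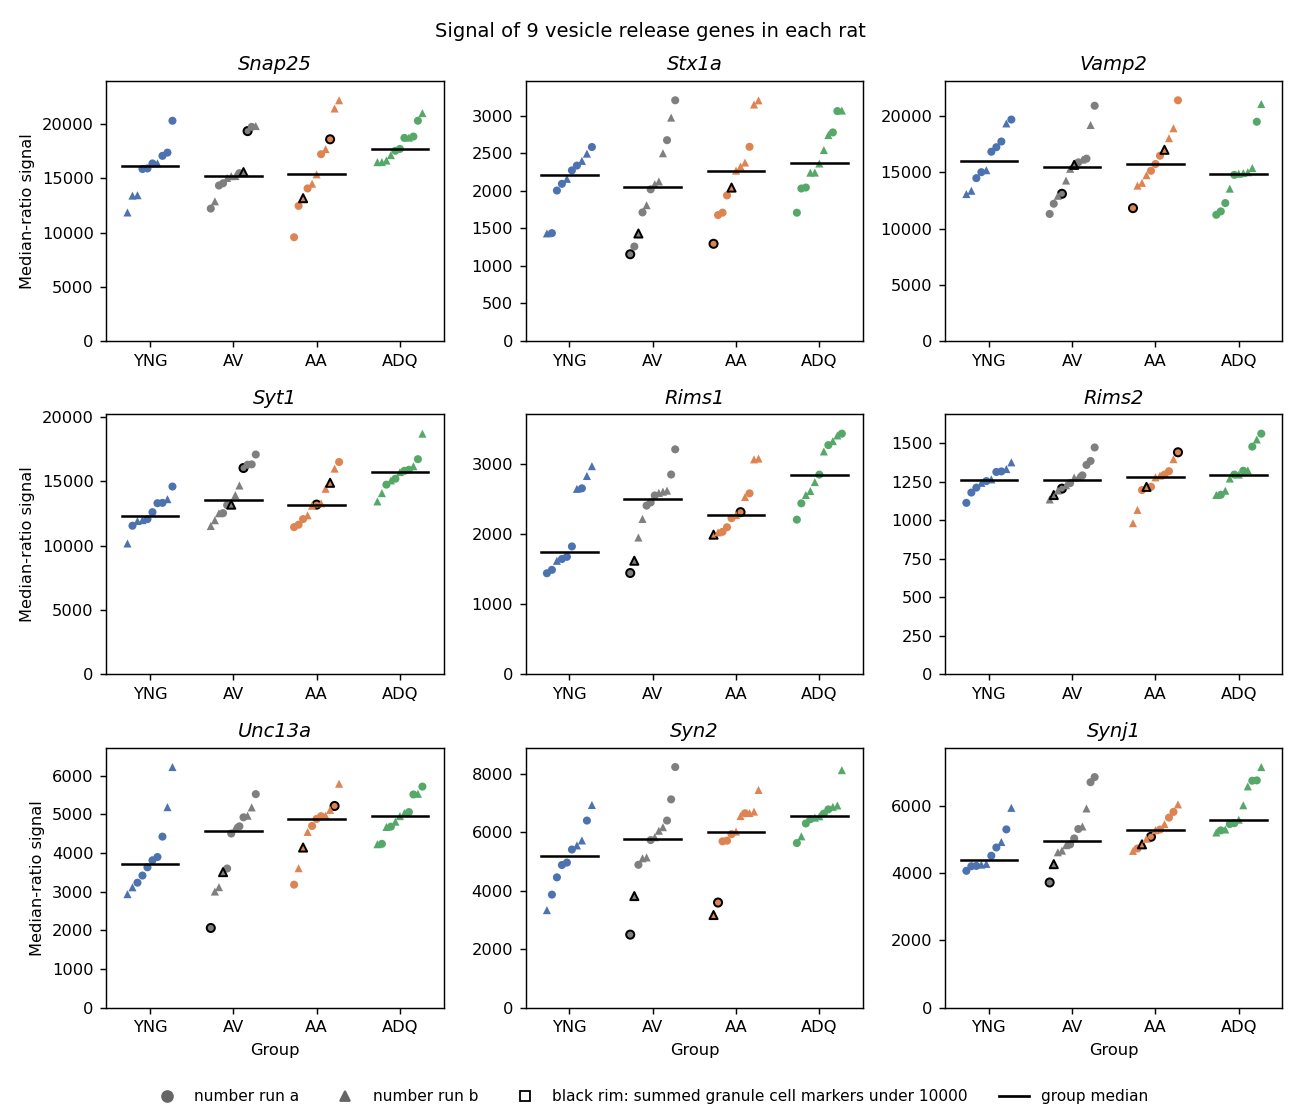
Median-ratio signal (y axis, from 0) of each of the 9 genes in each of 44 rats, by group (x axis), with rats sorted by value within a group. Circles and triangles mark the 2 runs of rat numbers, black rims the 4 rats with low granule cell markers and lines the group medians. For Syt1, 9 of 11 ADQ rats lay above every YNG rat, while for Vamp2 the 4 groups overlapped throughout.

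The scaling of the libraries bore on these counts. With each rat scaled to its total in place of the deposited median-ratio scaling, the median of all genes in ADQ against YNG moved by 0.15, the share of called genes that rose went from 48.0% to 82.7%, and 8 of the 9 genes rose, Rims2, Snap25 and Stx1a among them, with values that include that shift. Vamp2, at -0.13 as deposited, stood at 0.01 there. With scaling to the upper quartile the share was 56.5%, and 2529 of all tested genes rose. Of the 9 genes 6 rose there, with Snap25 added at 0.24 (p = 0.0233). Every other value rests on the scaling as deposited unless another is named.

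The promoters of the 5 genes that rose in ADQ against YNG are shown, as those of members called in the same comparison, from 250 bases before to 50 bases after the RefSeq start (build GRCr8, not the rn6 build of the reads), as given in the RefSeq-derived table. An entry matched 7 of the 9 genes. Snap25 and Rims2 had none. Capitals mark the GC box GGGCGG and the cyclic AMP response element core TGACG on either strand, and no base lay in both motifs in these promoters. The GC box is the letter sequence read by Sp1-type factors, and the CRE core is part of the element read by CREB.
Rims1: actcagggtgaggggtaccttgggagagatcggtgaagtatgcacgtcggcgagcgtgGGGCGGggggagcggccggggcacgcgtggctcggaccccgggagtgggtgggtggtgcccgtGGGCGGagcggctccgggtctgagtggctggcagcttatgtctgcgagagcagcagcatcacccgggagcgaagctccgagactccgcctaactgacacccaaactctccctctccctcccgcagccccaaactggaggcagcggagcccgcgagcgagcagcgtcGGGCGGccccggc
Synj1: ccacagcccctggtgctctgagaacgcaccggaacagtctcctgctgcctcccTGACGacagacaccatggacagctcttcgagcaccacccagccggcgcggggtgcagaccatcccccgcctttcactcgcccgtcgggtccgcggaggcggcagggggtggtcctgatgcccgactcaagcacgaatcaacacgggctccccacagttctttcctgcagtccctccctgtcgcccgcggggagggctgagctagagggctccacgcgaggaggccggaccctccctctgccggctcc
Syt1: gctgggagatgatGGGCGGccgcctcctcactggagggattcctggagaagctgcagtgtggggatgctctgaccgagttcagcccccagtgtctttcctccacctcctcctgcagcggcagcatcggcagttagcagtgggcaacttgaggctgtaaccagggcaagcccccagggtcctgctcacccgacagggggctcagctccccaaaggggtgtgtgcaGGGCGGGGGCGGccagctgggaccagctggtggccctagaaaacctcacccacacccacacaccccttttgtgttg
Unc13a: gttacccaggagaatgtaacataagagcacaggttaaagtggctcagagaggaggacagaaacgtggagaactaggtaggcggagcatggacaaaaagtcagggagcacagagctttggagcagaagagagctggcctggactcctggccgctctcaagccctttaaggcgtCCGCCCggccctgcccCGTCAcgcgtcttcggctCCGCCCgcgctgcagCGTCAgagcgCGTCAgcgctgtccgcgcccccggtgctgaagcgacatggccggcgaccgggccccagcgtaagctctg
Syn2: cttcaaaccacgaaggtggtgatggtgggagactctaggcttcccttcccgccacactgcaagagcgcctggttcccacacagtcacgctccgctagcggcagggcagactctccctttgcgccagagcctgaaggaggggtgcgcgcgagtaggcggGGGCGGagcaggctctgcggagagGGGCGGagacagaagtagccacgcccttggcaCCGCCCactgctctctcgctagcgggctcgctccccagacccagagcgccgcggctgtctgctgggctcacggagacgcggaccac
They lie at chr9:32692723-32693022 (Rims1, minus strand), chr11:43755477-43755776 (Synj1, minus), chr7:46244164-46244463 (Syt1, minus), chr16:18415737-18416036 (Unc13a, minus) and chr4:149858669-149858968 (Syn2, plus). The promoters of Rims1, Syt1 and Syn2 held 3 GC boxes each and Unc13a held 2, and Synj1 held 0. Of the genes that did not rise, Stx1a held 4 and Vamp2 held 3, so the motif was on both sides. Over all 33469 promoters of the table, 33.1% held a GC box and 21.2% a CRE core. The CRE core occurred 3 times in Unc13a, 1 time in Synj1 and 1 time in Vamp2, and not in the other 4. The G and C share was 63.0% to 70.7% over the 7 promoters, beside a median of 51.7% over the table, and Syt1 had 8 CG pairs where the other 6 had 24 to 31. A match is a description of letters and was not tested against the signal.

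Of the 3 SNARE genes, none was called by limma against YNG in any group. Snap25, which supplies a pair of the helices of the fusion bundle, spanned 11854 to 20319 in YNG (median 16150.1), 12216 to 19831 in AV (median 15214), 9569 to 22211 in AA (median 15374) and 16499 to 21023 in ADQ (median 17720.5). All 11 ADQ rats lay above the YNG median, yet only 2 lay above the highest YNG rat, and the AA rats reached both the lowest and the highest value of all groups. The difference was 0.21 in ADQ against YNG (SE 0.108, p = 0.0561, adjusted p = 0.189, permutation p = 0.01136) and 0.21 in ADQ against AV (SE 0.103, p = 0.0435, adjusted p = 0.521). Against YNG, Snap25 stood at -0.0026 in AV (95% interval -0.22 to 0.21) and -0.0033 in AA (95% interval -0.22 to 0.21).

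Stx1a, the syntaxin that anchors the complex in the terminal membrane, ran from 1432 to 2582 in YNG (median 2215), 1154 to 3204 in AV (median 2053), 1293 to 3203 in AA (median 2267) and 1707 to 3068 in ADQ (median 2363). The groups overlapped widely, and the lowest AV and AA rats, 3989 and 3996, were among the 4 with low granule cell markers. Its difference in ADQ was 0.21 against YNG (SE 0.156, p = 0.192) and 0.28 against AV (SE 0.149, p = 0.0694). Vamp2 was the one member whose mean was lower in ADQ than in YNG, at 11224 to 21085 (median 14881) against 13069 to 19702 (median 16015), with AV at 11299 to 20931 and AA at 11817.5 to 21417. The difference of -0.13 (SE 0.109, 95% interval -0.35 to 0.09, p = 0.236) did not pass, and Vamp2 was called in no comparison.

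The calcium sensor Syt1 separated YNG from ADQ rats with little overlap. Its signal was 10172 to 14601 in YNG (median 12336), 11531 to 17091 in AV (median 13564), 11445 to 16510.3 in AA (median 13195) and 13442 to 18713 in ADQ (median 15721). In ADQ, 9 of 11 rats exceeded the highest YNG rat and all 11 its median, and 7 of 11 AA rats lay below the lowest ADQ rat. Syt1 rose 1.25-fold in ADQ against YNG (log2 0.32, SE 0.077, p = 0.000144, adjusted p = 0.0180). It was 0.21 lower in AA than in ADQ (log2 difference -0.21, SE 0.075, p = 0.00765, adjusted p = 0.981). In AV against YNG the rise was 0.17 (SE 0.075, p = 0.0318, adjusted p = 0.191).

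At the active zone, the paralogs Rims1 and Rims2 differed in their values. Rims1, the scaffold that ties calcium channels and vesicles to the release site, was 1442 to 2971 in YNG (median 1750.3), 1445 to 3210.1 in AV (median 2502), 1992 to 3079 in AA (median 2273) and 2207 to 3434 in ADQ (median 2849). All 11 ADQ rats exceeded the YNG median and 5 the highest YNG rat. Rims1 had the largest fold of the 9 genes in ADQ against YNG (1.44-fold, log2 0.53, SE 0.130, p = 0.000198, adjusted p = 0.0193). Rims2 covered 1112 to 1374 in YNG (median 1258), 1134 to 1471 in AV, 979.8 to 1439 in AA and 1163 to 1560.2 in ADQ (median 1295). Its difference in ADQ was 0.07 (95% interval -0.06 to 0.20, p = 0.274), while the 95% interval of Rims1 was 0.26 to 0.79. The difference between the paralogs was not tested.

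Unc13a, which opens syntaxin for SNARE assembly, was 2936 to 6223 in YNG (median 3721), 2061 to 5523 in AV (median 4578), 3181 to 5792 in AA (median 4881) and 4227 to 5718 in ADQ (median 4955). No ADQ rat exceeded the highest YNG rat, but all 11 lay above the YNG median, and the rise of 0.34 (SE 0.131, p = 0.0118, adjusted p = 0.084) came with a narrow ADQ range. Syn2 followed the same order of medians, at 3340.1 to 6941.5 in YNG (median 5193), 2502 to 8242 in AV (median 5789), 3173 to 7458 in AA (median 6034) and 5638 to 8135 in ADQ (median 6555). Syn2 rose by 0.38 in ADQ (SE 0.146, p = 0.0118, adjusted p = 0.084). The lowest AV rat of both genes was 3989, and in Syn2 the 2 lowest AA rats were 4107 and 3996, at 3173 and 3601.

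Synj1, the uncoating phosphatase, was 4067 to 5938 in YNG (median 4394), 3720.3 to 6852 in AV (median 4941), 4659 to 6041 in AA (median 5275) and 5206 to 7151 in ADQ (median 5586). All 11 ADQ rats lay above the YNG median and 5 above the highest YNG rat. The rise was 1.28-fold in ADQ (log2 0.36, SE 0.084, p = 9.78e-05, adjusted p = 0.0169) and 1.14-fold in AA (log2 0.19, SE 0.084, p = 0.0332, adjusted p = 0.151). In AV the difference was 0.15 (SE 0.083, p = 0.0830).

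**Figure D2:**
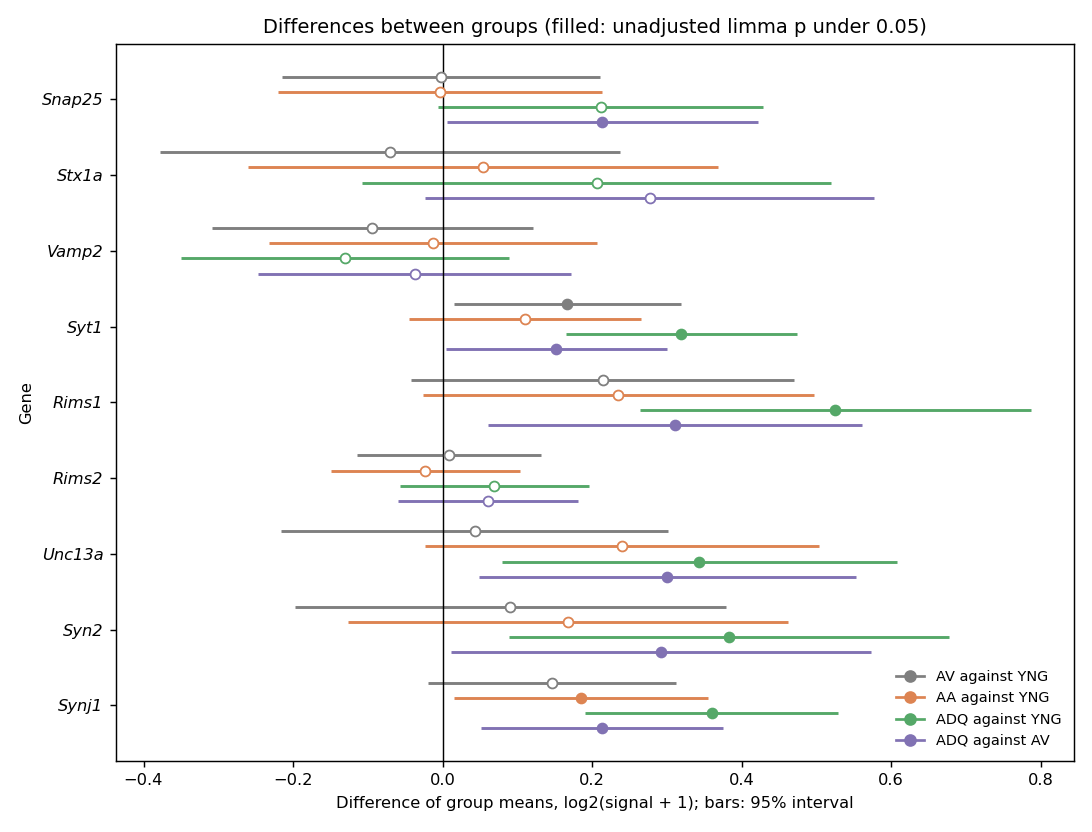
Differences of group means on the log2(signal + 1) scale (x axis) for each gene (y axis) in 4 comparisons, with 95% intervals from the limma fit as bars. Filled points had an unadjusted p under 0.05: 5 genes in ADQ against YNG, 6 in ADQ against AV and 1 each in AV and AA against YNG.

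With the 3 older groups pooled (OLDER, the mean of their means), the same 3 genes that passed adjustment in ADQ rose against YNG: Synj1 (0.23, SE 0.069, adjusted p = 0.0255), Syt1 (0.20, SE 0.063, adjusted p = 0.0327) and Rims1 (0.33, SE 0.107, adjusted p = 0.0365). This is 3 of 9, where 15.7% of all genes rose and 16.7% fell, and 3 of 9 at the adjusted threshold, where 6.65% rose. Of the 34 older rats, 17 exceeded the highest YNG rat in Syt1, 8 in Rims1 and 8 in Synj1, and 32 exceeded the YNG median in both Rims1 and Synj1. ADQ rats are part of OLDER, so these rises are not separate from those in ADQ. Without the 4 rats with low granule cell markers, 5 of 9 rose (against 16.3% of all genes), with Syn2 at 0.32 (p = 0.00021) and Unc13a at 0.25 (p = 0.015) added.

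ABT-263 and vehicle rats were not told apart by any of the 9 genes. In AA against AV, 0 of 9 were called, at an unadjusted or an adjusted p, by limma and by permutation tests, where 1.4% of all genes rose and 3.1% fell. The smallest p was that of Unc13a (0.20, SE 0.125, p = 0.122), and the 95% intervals reached from -0.21 to 0.21 for Snap25, -0.12 to 0.20 for Synj1 and -0.23 to 0.27 for Rims1, and differences anywhere within these intervals are compatible with the values. Without the 4 rats with low granule cell markers the count was also 0, where 1.74% of all genes rose.

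Dasatinib plus quercetin and vehicle rats differed in 6 of 9 genes, all higher in ADQ, where 3.42% of all genes rose and 5.9% fell. Rims1 rose by 0.31 (SE 0.124, p = 0.0158), Unc13a by 0.30 (SE 0.125, p = 0.0204), Syn2 by 0.29 (SE 0.140, p = 0.0419), Synj1 by 0.21 (SE 0.081, p = 0.0110), Snap25 by 0.21 and Syt1 by 0.15 (SE 0.074, p = 0.0440). None passed adjustment (adjusted p of 0.409 to 0.521), and 0 of all 15598 genes did. The 4 rats bore on this count: without them 2 of 9 were called (2.49% of all genes rose), Snap25 at 0.24 (p = 0.0274) and Syt1 at 0.16 (p = 0.0402), while Rims1 stood at 0.19 (p = 0.114), Unc13a at 0.19 (p = 0.115), Syn2 at 0.13 (p = 0.170) and Synj1 at 0.14 (p = 0.0752). Rat 3989 had the lowest AV value in 5 of the 9 genes. In this comparison 5 of 7 oligodendrocyte markers, 4 of 6 microglia markers and 3 of 5 endothelial markers fell. The 7 tested CA3 pyramidal and mossy cell markers all had a higher mean in ADQ, with a median difference of 0.22 beside 0.21 for the 9 genes, and so did the 6 markers of neurons of any kind (median 0.11), though none of either list was called. Neuronal lists did not move alike. Of 7 CA1 pyramidal cell markers 0 had a higher mean in ADQ (median -0.37), and none was called. Of 7 granule cell markers and 7 interneuron markers, 5 each had a higher mean (medians 0.14 and 0.08), again with none called. The summed CA3 and mossy cell markers had a median of 27116 in ADQ (18108 to 37442) and 21369 in AV (8994 to 29094), and the part of cell makeup in the gene differences was not tested.

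**Figure D3:**
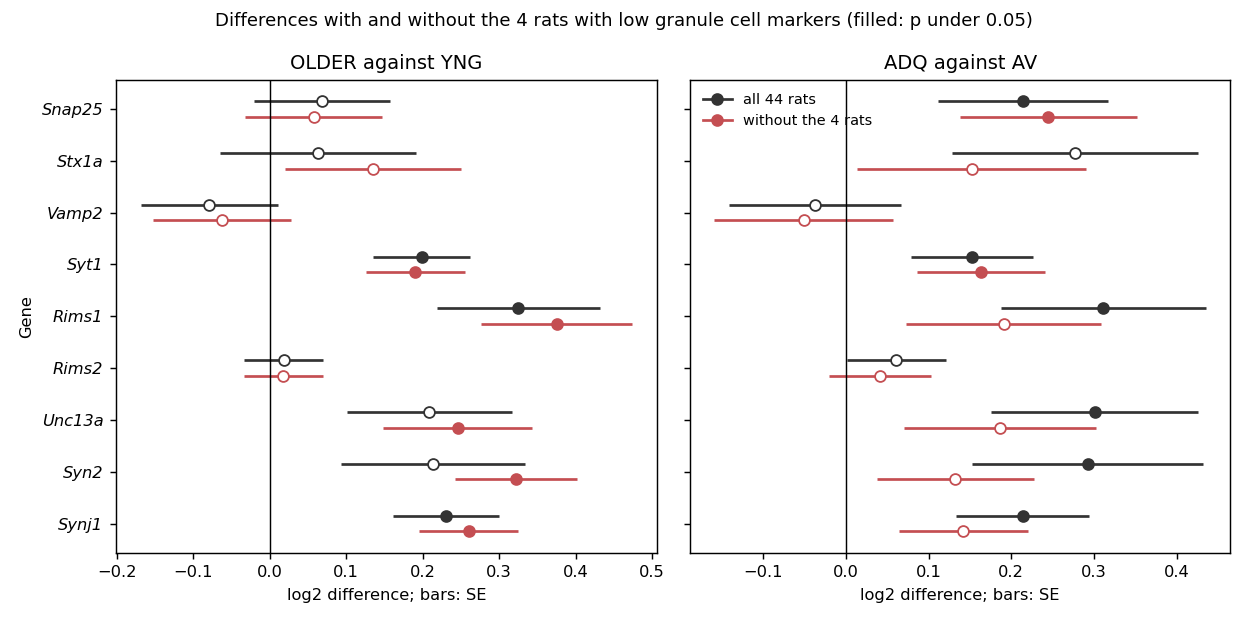
The log2 difference (x axis, bars are SE) of each gene (y axis) in OLDER against YNG and in ADQ against AV, fitted on all 44 rats and without the 4 rats with low granule cell markers, with filled points at an unadjusted p under 0.05. Leaving them out raised the calls from 3 to 5 in the first comparison and lowered them from 6 to 2 in the second.

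Between the drug treatments, 4 of 9 genes were lower in AA than in ADQ, where 2.4% of all genes were lower and 2.13% higher. These were Syt1, given above, Rims1 (-0.29, SE 0.127, p = 0.0265), Synj1 (-0.17, SE 0.082, p = 0.0389) and Snap25 (-0.21, SE 0.105, p = 0.0472). All had an adjusted p of 0.981, as 0 of all genes passed. Permutation gave p-values of 0.00563 for Syt1, 0.00739 for Rims1, 0.01286 for Synj1 and 0.072 for Snap25, which was not called by that test. Without the 4 rats, Syt1 and Rims1 stayed called (p = 0.00758 and p = 0.0378, against 1.94% of all genes lower).

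The median spread of the genes was smallest in ADQ, without a test of the difference. The median SD of log2(signal + 1) over the 9 genes was 0.223 in YNG, 0.259 in AV rats, 0.238 in AA and 0.148 in ADQ, beside 0.309, 0.353, 0.307 and 0.252 over all genes tested, with ADQ lowest and AV highest in both. Without the 4 rats the AV and AA values were 0.226 and 0.212 for the 9 genes, and 0.319 and 0.276 for all genes tested. Over all 44 rats, not every gene had its smallest SD in ADQ. The SD of Vamp2 was largest in ADQ (0.283, beside 0.209 in YNG). That of Rims2 was 0.148 in ADQ and 0.091 in YNG, and that of Synj1 was smallest in AA (0.122, beside 0.171 in ADQ). Single rats led several genes at once: 4106 was the highest ADQ rat in 6 of 9 genes and the lowest in Unc13a, and had the highest sum of CA3 and mossy cell markers of all 44 rats (37442), and V12 was the lowest YNG rat in 4.

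Rat numbers form 2 runs, up to 4011 with V1 to V6 (run a, 22 rats) and the others (run b, 22 rats), each with rats of every group, and no label calls them batches. Within run a, ADQ against YNG called 4 of 9 genes higher (Rims1, Unc13a, Synj1 and Syt1, against 12.3% of all genes), and within run b 3 of 9 (Syt1, Snap25 and Synj1, against 4.33%). Synj1 and Syt1 rose in both. In OLDER against YNG the counts were 2 in run a (Rims1 and Synj1, 17.5% of all genes) and 2 in run b (Snap25 and Syt1, 5.42%). In ADQ against AV, run a called 0 of 9 (1.83%) and run b 3 (Synj1, Syt1 and Rims1, 4.99%).

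The difference between runs in OLDER against YNG was itself called for 2 of 9 genes, where 20.3% of all genes were called. In Rims1 the difference from YNG was 0.50 in run a and 0.05 in run b (difference between runs 0.45, SE 0.207, p = 0.0339, adjusted p = 0.202). Its YNG rats were at 1442 to 2654 in run a (median 1661) and 1619.5 to 2971 in run b (median 2738), while ADQ medians were 2849 and 2961. In Snap25 the difference was -0.10 in run a and 0.29 in run b (difference between runs -0.39, SE 0.171, p = 0.0292, adjusted p = 0.187), with YNG at 15867 to 20319 in run a and 11854 to 16389.8 in run b. In both genes the YNG rats, 6 in run a and 4 in run b, moved more between the runs than the ADQ rats did.

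From rat to rat, within groups, the genes varied together in part. Pearson r of log2(signal + 1) minus the group mean was computed over 44 rats for all 36 pairs, with permutation p-values adjusted over the 36. It was positive in 30 pairs, with a median of 0.264, and 14 pairs passed, all positive. Pairs of other tested genes were not counted in this way, so these counts have no background beside them. Whether the vesicle release genes varied together more than other genes was therefore not tested. Rims1, Unc13a, Syn2 and Synj1 formed a block in which all 6 pairs passed, with r of 0.527 (Unc13a and Synj1) to 0.686 (Rims1 and Syn2, Spearman rho 0.712, permutation p of both 1e-05, the smallest that 100000 permutations can give, and adjusted p of 6e-05 and 0.00018). Within the runs this block held in part. Unc13a and Synj1 had an r of 0.771 in run a and 0.230 in run b (adjusted permutation p of 0.00432 and 0.512). Unc13a and Syn2 had 0.718 and 0.428 and passed in neither run (adjusted permutation p of 0.0655 and 0.194). The other pairs of the block passed in both runs. Syt1 and Snap25 formed another pair (r = 0.658, rho = 0.701, each with a permutation p of 1e-05, and r of 0.666 in run a and 0.678 in run b). Stx1a went with Syn2 (r = 0.714, permutation p = 1e-05, rho = 0.650, permutation p = 2e-05) and with Vamp2 (r = 0.631, permutation p = 1e-05, rho = 0.597, permutation p = 6e-05). The sets were not separate, as Synj1 and Syt1 also passed (r = 0.497, rho = 0.510, adjusted permutation p of r 0.0035), while Syt1 and Unc13a had an r of 0.019 and Rims1 and Snap25 of -0.031.

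Leaving out the 2 rats farthest from the median of the first gene of a pair gave r of 0.601 for Rims1 and Syn2, 0.612 for Snap25 and Syt1, and 0.623 for Stx1a and Syn2. Within run a 10 pairs passed, and within run b 14 did, 13 of them positive. Unc13a and Vamp2 had an r of 0.241 in run a and -0.724 in run b. The values of a rat share 1 library, its depth and its dissection, and without the 4 rats with low granule cell markers 17 pairs passed. Over all tested genes, the closest to Rims1 by r was Erc2 (0.880, rho 0.867), an active zone scaffold protein, and the closest to Unc13a was Csmd2 (0.916, rho 0.910). To Synj1 the closest were Unc5c (0.831) and the active zone scaffold Pclo (0.822), to Stx1a Pip5k1c (0.940), a kinase that makes the lipid that synaptojanin removes, and to Syt1 AC126641.1 (0.766).

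**Figure D4:**
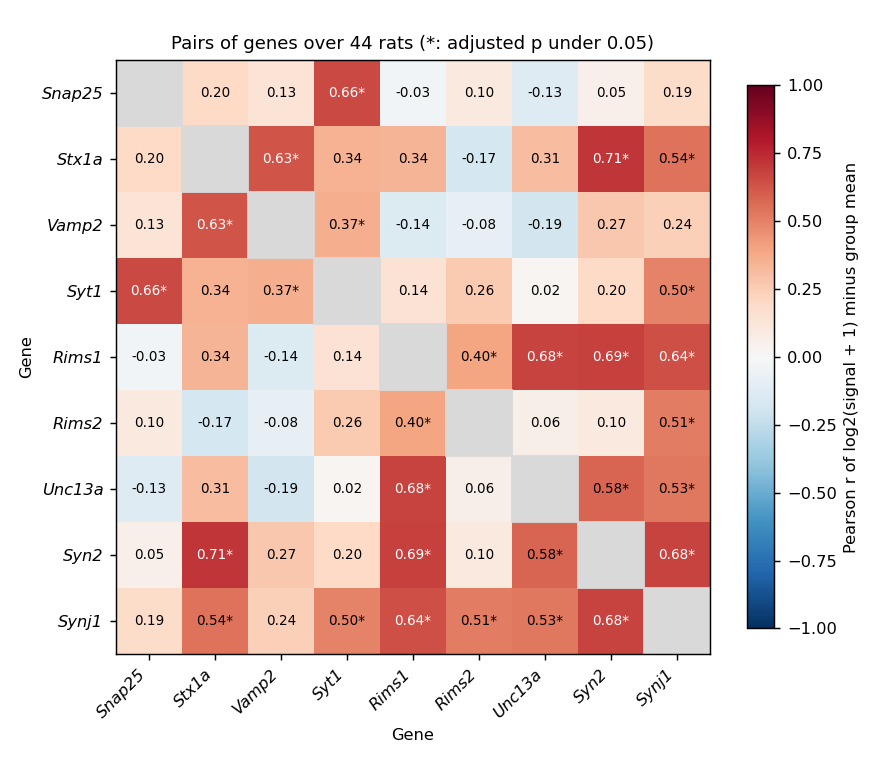
Pearson r between each pair of the 9 genes (both axes) over 44 rats, from log2(signal + 1) with the group mean removed, on a colour scale from -1 to 1. Stars mark the 14 pairs with a permutation p under 0.05 after adjustment over 36 pairs, among them all pairs of Rims1, Unc13a, Syn2 and Synj1.

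The wider vesicle cycle was read from 95 other genes in 5 lists, of which 94 were tested (Sv2b was not). In ADQ against YNG 23 of 94 rose and 4 fell, 8 and 1 of them after adjustment, with a median difference of 0.09. The share that rose was 24.5%, beside 13.5% of all tested genes, of which 14.6% fell, and the counts of single lists below stand against the same shares. In AV against YNG 4 rose (Dnm2, Eps15, Stxbp5 and Sv2c) and 7 fell, and in AA against YNG 11 rose and 5 fell (Clta, Cltb, Cplx2, Snap47 and Syt16). The shares that rose, 4.26% in AV and 11.7% in AA, were below those of all tested genes (10.6% and 12.6%). In ADQ against AV 15 rose (16.0%, beside 3.42% of all genes) and 1 fell (Syngr2), and in AA against AV 4 rose (Doc2a, Rims3, Slc32a1 and Tspoap1) and 1 fell (Syngr2). In AA against AV 4.26% of the 94 rose, beside 1.4% of all genes, of which 3.1% fell. These pathway counts are not given without the 4 rats with low granule cell markers, nor within the runs. For the vesicle release genes, fewer were called in ADQ against AV without those rats and within each run, as given above. Whether the pathway count in that comparison depends on the same rats was not tested. In AA against ADQ 1 of the 94 was higher (Rab3b) and 5 were lower, where 2.13% of all genes were higher and 2.4% lower. Genes in these short lists, and those of the same kind below, were named after their values were seen. The median over all tested genes was within 0.01 of 0 in each of these comparisons.

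Of 22 active zone and priming genes, 8 rose and 0 fell in ADQ against YNG (median 0.20), among them Bsn (0.34) and Erc2 (0.48), scaffolds of the release site. Pclo, the giant scaffold piccolo, rose by 0.61 (SE 0.159, adjusted p = 0.0223) and in OLDER against YNG by 0.42 (adjusted p = 0.0285). Unc13b, the Munc13-2 paralog of Unc13a, rose by 0.41 (SE 0.138, p = 0.0046, adjusted p = 0.0551), and Cadps, a priming factor, by 0.42 against YNG (adjusted p = 0.0313) and by 0.32 against AV (SE 0.114, p = 0.0080). Rims3, a short RIM paralog, was the list's leading gene in AA against AV (0.50, SE 0.211, p = 0.0218, adjusted p = 0.999).

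Of 27 endocytosis and uncoating genes, 7 rose and 1 fell in ADQ against YNG (median 0.08). Sh3gl2, the endophilin that recruits synaptojanin 1 to vesicle necks, rose by 0.54 (SE 0.151, adjusted p = 0.0277) and by 0.39 against AV (SE 0.144, p = 0.0087). Cltb, a clathrin light chain, fell by 0.34 (SE 0.106, adjusted p = 0.0451) and in OLDER against YNG by 0.25 (adjusted p = 0.0435). Eps15, an endocytic adaptor, rose by 0.34 in OLDER (SE 0.111, adjusted p = 0.0346), and Picalm, a clathrin assembly protein, was at -0.15 in AA against AV (SE 0.075, p = 0.0564).

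Of 14 SNARE and fusion partner genes, 4 rose (Stxbp5, Napg, Nsf and Cplx1) and 1 fell in ADQ against YNG (median 0.17). Stxbp5, or tomosyn, which competes with synaptobrevin for the membrane SNAREs, rose by 0.27 (SE 0.072, adjusted p = 0.0225) and in OLDER by 0.21 (adjusted p = 0.0190). Napg, a cofactor that takes used SNARE complexes apart, rose by 0.23 in ADQ against AV (SE 0.080, p = 0.0053). Snap47 fell by 0.18 in OLDER against YNG (SE 0.066, p = 0.0075, adjusted p = 0.0501), while the fusion clamp Cplx1 rose by 0.21 in the same comparison (SE 0.082, p = 0.0125) and stood at 0.11 in AA against AV (p = 0.265).

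Of 15 tested vesicle proteins, 3 rose (Syngr1, Syngr3 and Sv2c) and 2 fell (Syngr2 and Sv2a) in ADQ against YNG (median 0.08), counts near those of all tested genes (13.5% and 14.6%). Sv2a fell by 0.18 in OLDER (SE 0.076, p = 0.0200, adjusted p = 0.087) while its paralog Sv2c rose by 0.38 (SE 0.153, p = 0.0171, adjusted p = 0.079). Syngr2, a synaptogyrin found mainly outside neurons, fell by 0.55 in ADQ against AV (p = 0.000647, adjusted p = 0.185), and Slc32a1, the vesicular GABA transporter, rose by 0.27 in AA against AV (SE 0.107, p = 0.0156). The genes of the list named calcium sensors were not checked 1 by 1 for calcium binding. Of its 16 genes, 1 rose in ADQ against YNG (Syt6, by 0.32, list median 0.04) where 13.5% of all genes rose. In OLDER, where 16.7% of all genes fell, 4 of 16 fell, Syt10 by 0.52, Syt16 by 0.19 (SE 0.076, p = 0.0151), Syt3 by 0.17 and Syt5 by 0.15 (SE 0.074, p = 0.0432). Syt4 rose by 0.20 in ADQ against AV (SE 0.087, p = 0.0251) and Doc2a by 0.23 in AA against AV (SE 0.100, p = 0.0280).

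**Figure D5:**
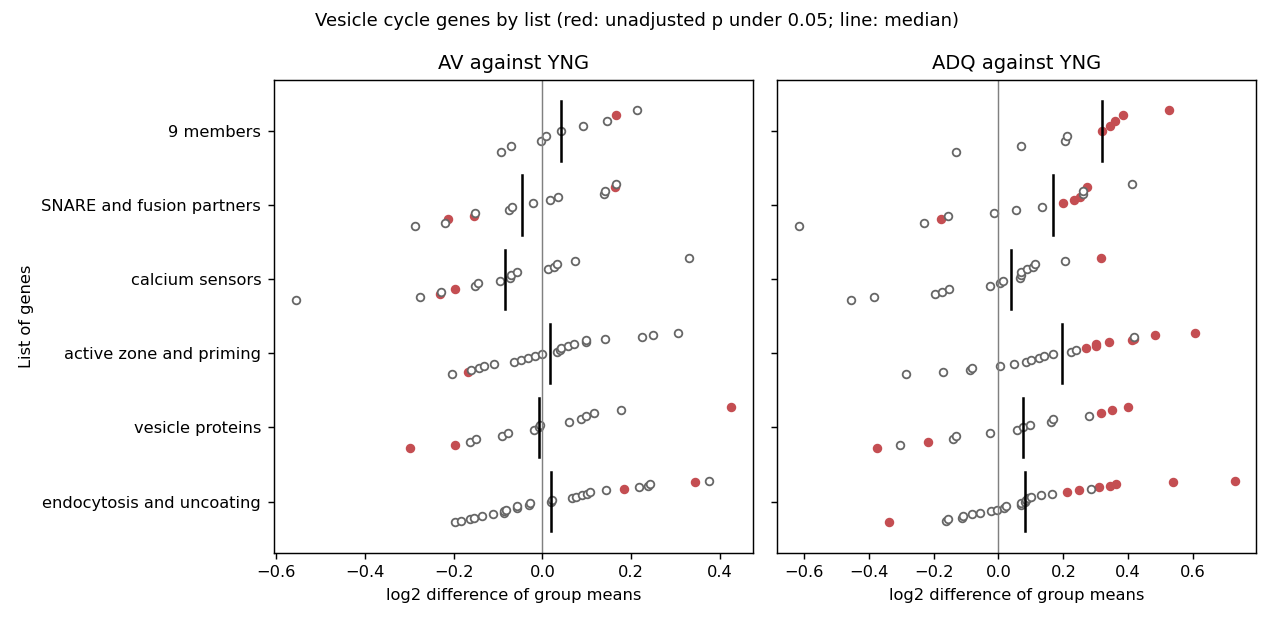
Log2 difference of group means (x axis) of each tested gene, by list (y axis), in AV against YNG and in ADQ against YNG. Red points had an unadjusted p under 0.05 and lines are list medians, which lay at 0.32 for the 9 genes and 0.20 for active zone and priming genes in ADQ.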

How the data were processed

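RNA of the dentate gyrus of 44 rats was sequenced, 1 library per rat. The submitters' processing notes name STAR 2.5.3a, Partek, DESeq2 and genome build rn6. The annotation is not given in the sources used here. The deposited table holds signal values that the authors made by dividing estimated read counts by a median-ratio size factor per library, with 24694 rows for 18347 gene identifiers. Between 79.7% and 84.1% of each rat's values below 20 reads were whole to within 0.05 reads, so the values were not used as counts, and limma took the place of the count model of the study. GEO's labels gave young or older rats, and the treatment of each rat was read by rat name from the authors' attributes table.

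Rows were summed per gene identifier. Genes with a mean of at least 5 were fitted on log2(signal + 1) with limma 3.58.1 (trended variance) in R 4.3.3 with data.table (version 1.17.8), as 4 groups in 1 fit with no covariate. The call was an unadjusted p under 0.05. The script was tested on simulated data. Permutation tests, correlations and figures used python 3.11.15, matplotlib 3.10.9, scipy 1.17.1, numpy 2.4.6 and pandas 2.3.3. Permutation tests of single genes and of pairs used 100000 resamples, two-sided, with adjustment over the 36 pairs. Promoters came from a RefSeq table of GRCr8, with 7 of 9 genes matched.

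All 9 genes were described. In each of 5 pathway lists the 2 genes with the smallest p in OLDER against YNG, and the 1 with the smallest in AA against AV and in ADQ against AV, were named, and for each of the 9 genes those with the highest r. The members and lists were chosen with earlier results of these data known. Each rat is 1 animal and the only replicate level, and the number of rats limits the precision. Alternatives were upper quartile and total scaling, pseudocounts of 0.5 and 5, a filter at a mean of 20 or none, the row with the highest mean in place of the sum, only the groups compared, array weights, the number run as a covariate, each run alone, permutation, leaving out each rat, and, chosen after seeing the data, leaving out the 4 rats with low granule cell markers. Some single genes of the pathway lists are not reported here.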

Additional observations from a re-analysis of the deposited data

Results flagged for a closer look

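The difference of OLDER against YNG was larger by 0.4546 in run a than in run b for Rims1, the active zone scaffold (log2 scale, p = 0.0339, adjusted p = 0.202), and this stands here because the test of the difference between the runs passed. For Snap25, the membrane SNARE, the difference was lower in run a than in run b, at -0.3855 (p = 0.0292, adjusted p = 0.187), for the same reason. Over all tested genes 20.3% passed that test, so neither gene stood apart from the table, and 653 genes passed it after adjustment, with neither of these among them. In the 10 YNG rats, no value of the 9 genes lay far enough from the others to be listed here, and the older rats, more than 10 under their label, were not tested for this.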

How the results depend on the processing

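In ADQ against YNG, Syt1 and Synj1 stayed called under 14 of 14 alternatives and Rims1 and Unc13a under 13, and those 4 genes and Syn2 stayed called in 44 of 44 fits that each left out 1 rat. The counts of called genes that moved follow, and the cause was not tested. Under total scaling 2819 of the 15598 tested genes rose in AV, 4415 in AA, 4315 in ADQ and 4955 in OLDER, against YNG. As deposited these were 1651, 1959, 2104 and 2449. Upper quartile scaling gave 2011 in AV. Within run a 15.2% of all genes rose in AV, and within run b 3.77% in AV and 7.19% in AA. Array weights, the highest row and only the groups compared have no such numbers here, so their counts have no background. In AV against YNG (1 called) upper quartile scaling gave 2, total scaling 3, the highest row 0, only the groups compared 0, array weights 5, run a 2, run b 0 and leaving out the 4 rats with low granule cell markers 3. In AA against YNG (1) total scaling gave 4, the highest row 0, array weights 4, run b 2 and leaving out the 4 rats 3. In ADQ against YNG (5) total scaling gave 8 and run b 3. In OLDER against YNG (3) total scaling gave 7, array weights 5 and leaving out the 4 rats 5. In AA against AV (0) run a gave 1, lower in AA, where 357 of all 15598 genes were lower. In ADQ against AV (6) the highest row gave 3, run a 0, run b 3 and leaving out the 4 rats 2. In AA against ADQ (4) total scaling gave 1, the highest row 2, run a 2, run b 0 and leaving out the 4 rats 2. Of all genes, 227 were lower in AA than in ADQ under total scaling, 468 in run a and 383 in run b, beside 375 as deposited. The difference between the runs (2) was called for 1 gene under total scaling and 0 with the highest row, and 22 of 36 pairs (14) passed under total scaling. Snap25 in AA against YNG turned from -0.0033 to 0.32 in run b (p = 0.0368).

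Leaving out 1 rat gave 0 to 3 in AV against YNG (0 without 3890, 4009, 4011, V2 or V12, 2 without 3989 or V11, 3 without 4571 or V10). It gave 0 to 3 in AA against YNG (0 without 3983, 3988, 4070, V2, V3, V6 or V12, 2 without 3985, 3989, 4036 or V5, 3 without V10 or V11), 3 to 5 in OLDER against YNG (5 without 3989, V5 or V10), 5 to 6 in ADQ against YNG and 0 in AA against AV. It gave 3 to 7 in ADQ against AV (3 without 3994, 4006, 4074, 4106, 4567 or 4571), 2 to 4 in AA against ADQ (2 without 3985, 4006, 4007, 4035, 4074, 4106 or 4107) and 1 to 3 for the run difference (1 without V1, V2, V5 or V9 to V12). The run difference with only the groups compared has no value of its own, since it uses all 4 groups. No paired analysis was possible because no label pairs young with older rats and a number names a single rat. The contrasts between older groups rest on unadjusted p-values alone.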

Other observations

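The deposited table splits some of the 9 genes over rows, and the rows did not carry the differences alike. The Synj1 row that holds 21.7% of its signal was at 770 ± 451 in YNG (SD, n = 10), 1244 ± 766 in AV (n = 12), 1156 ± 451 in AA (n = 11) and 1363 ± 295 in ADQ (n = 11). Its main row had means of 3872, 3932, 4103 and 4593 in the same order. For Rims1, the second of its 5 rows had means of 616, 732, 768 and 1004, and the first of 737, 863, 855 and 945. What transcript each row stands for is not given in the sources used here, and rows were not tested.

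Other genes followed single members closely over the 44 rats. Next to Syn2 stood Slit2, a guidance cue (r = 0.932, rho = 0.770), and the active zone gene Erc1 (r = 0.925, rho = 0.837). Next to Vamp2 stood Agpat1 (r = 0.849) and next to Rims2 Tmx4 (r = 0.691). For Snap25 the closest with a full gene name was Chn1, a Rac regulator of neurons (r = 0.753, rho = 0.862).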
